A study of Mus musculus with 6 samples.

Results

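RUNX1 peaks were examined around 10 genes of the WNT pathway in mouse granulosa cells before and 6 h after an ovulatory dose of hCG. The genes were the receptors Fzd1 and Fzd4, the R-spondin branch genes Lgr4 and Znrf3, and Sfrp4 and Dkk3, which were listed under antagonists. They also took in the scaffold gene Axin2 and the nuclear effectors Ctnnb1, Lef1 and Tcf7l2. They are 10 of the 21900 protein-coding genes of the gene table and were chosen by name, with earlier results of these data known. Contrasts with all coding genes are therefore descriptive. A peak was assigned to a gene when its summit, the position of highest enrichment, lay inside the gene or within 50 kb of either end. This took in 101 of the 51515 peaks of the 4 libraries, and no peak was assigned to more than 1 of the 10 genes.

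The libraries came from chromatin immunoprecipitation with a RUNX1 antibody, sequenced as single reads of 75 nt. The mice were CBA x C57BL/6 F1 animals aged 21 days, given 5 IU of eCG, which drives follicle growth, and 5 IU of hCG 46 h after it, which stands in for the ovulatory surge. There were 2 libraries from pre-ovulatory granulosa cells (0 h), and 2 from peri-ovulatory granulosa cells (6 h after hCG). Each time point also had 1 pooled input, which has no peak list here. The treatment label is the same text for every sample and mentions no collection before hCG, so which libraries are 0 h was read from titles and time-point labels. Nothing in the labels says whether libraries of a time point came from separate animals, so the spread between them may be technical. Peak lists hold no measure of which cells were present, so the labelled cell type could not be checked against its markers.

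WNT proteins are secreted signals that bind Frizzled receptors on the cell surface. In the canonical branch this stops a destruction complex, built on AXIN scaffolds, from degrading β-catenin (the product of Ctnnb1), which then enters the nucleus and activates genes together with TCF/LEF DNA-binding proteins. ZNRF3 is a membrane ubiquitin ligase that removes Frizzled receptors, R-spondins acting through LGR4 hold it back, and SFRP4 is a secreted protein related to Frizzled that can bind WNTs. In the ovary WNT signalling is known for its part in ovarian differentiation, and Fzd4 and Sfrp4 have been studied in ovulating follicles and corpora lutea. RUNX1 is a DNA-binding factor that recognises TGTGGT together with its partner CBFB.

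Of the 10 genes, 7 have an annotated start in the RefSeq promoter table (GRCm38.p6), which gives 250 bases before and 50 after each start. The starts of Fzd4, Lgr4, Axin2 and Ctnnb1 are shown because a 6 h summit lay inside that window. The 250 bases before the start are given, with CG dinucleotides in capitals.
Fzd4, chr7:89404116-89404365, plus strand: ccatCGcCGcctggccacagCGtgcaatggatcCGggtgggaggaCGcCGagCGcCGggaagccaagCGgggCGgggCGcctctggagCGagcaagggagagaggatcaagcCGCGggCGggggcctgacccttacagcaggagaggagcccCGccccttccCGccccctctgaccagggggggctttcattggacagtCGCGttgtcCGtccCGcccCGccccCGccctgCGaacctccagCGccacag
Lgr4, chr2:109917397-109917646, plus strand: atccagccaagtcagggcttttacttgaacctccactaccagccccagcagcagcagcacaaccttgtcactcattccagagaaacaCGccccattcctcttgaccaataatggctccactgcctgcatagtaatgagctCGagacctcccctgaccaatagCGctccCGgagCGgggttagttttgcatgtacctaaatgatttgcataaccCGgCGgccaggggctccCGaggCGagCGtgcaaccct
Axin2, chr11:108920099-108920348, plus strand: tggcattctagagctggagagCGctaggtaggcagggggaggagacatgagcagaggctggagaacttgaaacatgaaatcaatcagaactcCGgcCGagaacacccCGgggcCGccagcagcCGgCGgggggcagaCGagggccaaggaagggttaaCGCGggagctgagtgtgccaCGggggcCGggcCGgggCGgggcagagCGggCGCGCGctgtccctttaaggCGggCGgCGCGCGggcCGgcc
Ctnnb1, chr9:120933150-120933399, plus strand: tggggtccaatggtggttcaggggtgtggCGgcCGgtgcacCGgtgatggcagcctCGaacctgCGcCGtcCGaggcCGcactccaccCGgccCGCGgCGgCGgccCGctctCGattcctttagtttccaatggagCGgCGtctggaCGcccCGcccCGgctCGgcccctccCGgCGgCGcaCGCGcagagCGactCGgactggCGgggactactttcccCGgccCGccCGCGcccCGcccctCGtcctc
Relative to the start, the summit at Fzd4 lay at −210 in 0 h replicate 2, at −148 in 6 h replicate 1 and at −188 in 6 h replicate 2. The Lgr4 summit lay at 22 bases after the start in both 6 h libraries. At Ctnnb1 the summits were at −2 and −13 in 6 h replicates 1 and 2. The Axin2 summit of 6 h replicate 1 lay 31 bases after the start, and that of the replicated region 58 bases after it. The 300-base windows held 32 CG dinucleotides at Fzd4, 18 at Lgr4, 31 at Axin2 and 46 at the Ctnnb1 start shown. The median was 7 over all 32851 promoter windows and 27 over the 4378 windows that held the summit of a replicated 6 h region. Both strands of the 12 windows of the 7 genes were searched for TGTGGT (RUNX), CTTTGA (TCF/LEF) and TGANTCA (AP-1). None held TGTGGT or TGANTCA, which were present in 16.8% and 7.81% of all windows and in 13.8% and 4.11% of those with a 6 h summit. CTTTGA was found in 2 of the 12, at Fzd1 and at a start of Lef1, against 16.0% of all windows and 8.73% of those with a 6 h summit. The windows of Fzd1, Lef1 and Tcf7l2 held no 6 h summit, and some windows of Ctnnb1 and of Lef1 overlap. The shares of windows with a 6 h summit are therefore a reference for only part of the 12. Parts of the peaks outside these windows were not searched.

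All 10 genes had a RUNX1 peak in both 6 h libraries, and 5 or fewer had one at 0 h. In 0 h replicate 1 a peak was called near 1 gene and in 0 h replicate 2 near 5, while 9.42% and 28.2% of all protein-coding genes had one in these libraries. In the 6 h libraries the share of all protein-coding genes was 69.3% and 76.1%. The 10 genes together had 1 and 5 peaks in the 0 h libraries and 39 and 56 in the 6 h libraries. Per library this was 3 ± 2.83 peaks before hCG and 47.5 ± 12.0 after it (mean ± SD, n = 2 each). On the log2 scale the 6 h mean was 4.39 higher (exact permutation test over libraries, two-sided, p = 0.333, n = 2 per group), and 0.333 is the smallest p that 2 libraries against 2 can give. The groups did not overlap for any of the 10 genes: each had more peaks in both 6 h libraries than in either 0 h library. The same held for 64.6% of all protein-coding genes.

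**Figure D1:**
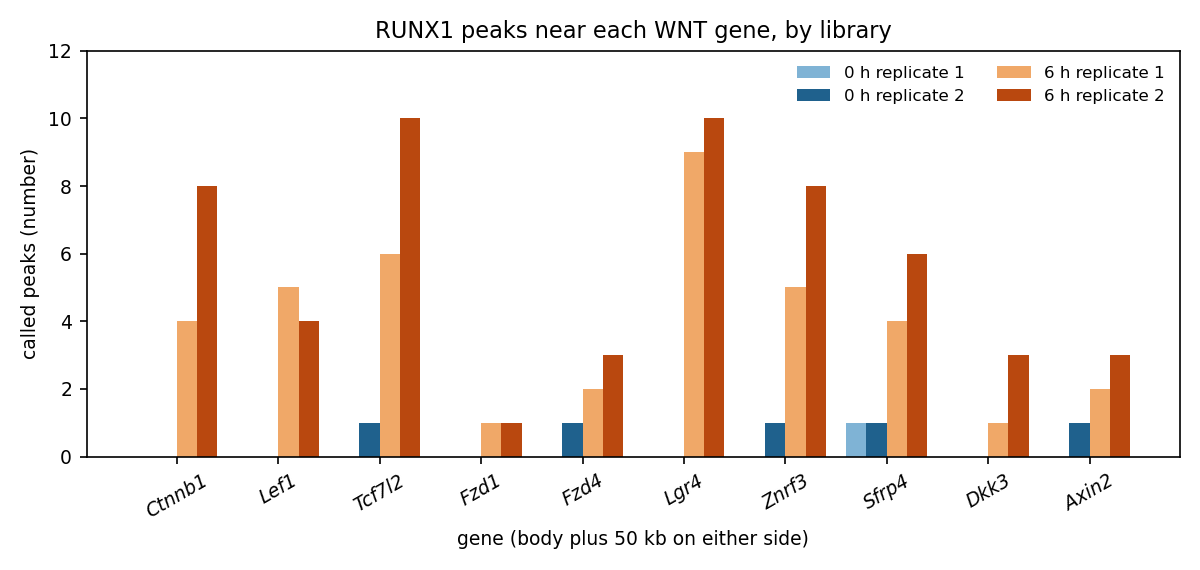
Number of called RUNX1 peaks (vertical axis) assigned to each of the 10 WNT genes (horizontal axis, gene body plus 50 kb on either side), with 1 bar per library. All 10 genes have bars in both 6 h libraries, Lgr4 and Tcf7l2 reach 10 in 6 h replicate 2, and only Sfrp4 has a peak in both 0 h libraries.

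The lists differ in length, from 948 and 3135 peaks at 0 h to 18761 and 28671 at 6 h. Peaks near the 10 genes made up 0.105% of 0 h replicate 1 (exact Clopper-Pearson 95% interval 0.00267 to 0.586) and 0.159% of 0 h replicate 2 (0.0518 to 0.372). They made up 0.208% (0.148 to 0.284) and 0.195% (0.148 to 0.254) of 6 h replicates 1 and 2. The intervals cover counting error only, and they overlapped. The mean share was 0.132% ± 0.0382 before hCG and 0.202% ± 0.00888 after it (SD, n = 2 each), a difference of 0.0691 percentage points (two-sided exact permutation test over libraries, p = 0.333). The difference became −0.0538 when peaks were limited to a −log10 q of at least 20. With the 948 peaks of lowest p-value from each library, the 10 genes had 1 and 3 peaks at 0 h and 3 and 4 at 6 h, so the groups then overlapped, and 0 of the 10 genes had more peaks in both 6 h libraries, against 2.33% of all coding genes in lists of that length. The genome-wide background recovered at the peaks was 2.77 and 2.65 reads per position at 0 h and 2.76 and 2.13 at 6 h. Sequencing depth itself was not measured, and the caller settings behind this background are not given. The lowest summit pileup of any called peak was between 17 and 20 reads in the 4 lists, and sites with fewer reads could not appear.

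Peaks found in both libraries of a time point were merged into replicated regions. At 6 h all 10 genes had such a region, against 68.8% of all protein-coding genes, and there were 37 regions in all. At 0 h 1 of the 10 had one, Sfrp4, against 8.75%. Without 0 h replicate 1, when any peak of the remaining library counts, this became 5 of the 10 against 28.2%. The 10 genes had a median of 3.5 regions each at 6 h, and the median over all protein-coding genes was 2. Their median length was 38.2 kb, against 17.1 kb over all coding genes, and a longer gene has a larger window. Per 100 kb of window the 10 genes had 2.18 regions at 6 h and all coding genes 1.44. The densest was Lgr4 with 4.58 per 100 kb, above 91.5% of coding genes, and the sparsest was Dkk3 with 0.697, above 37.7%. All 39 peaks of 6 h replicate 1 near the 10 genes overlapped a peak of replicate 2, as did 96.3% of the whole list. Of the 56 peaks of replicate 2 near them, 38 overlapped a peak of replicate 1 and 18 did not. Over the whole longer list of replicate 2, 60.8% overlapped one. The 18 had a median fold enrichment of 8.94 and the 38 one of 15.5, against 8.30 and 13.8 over the whole list, all from the authors' values in that list.

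**Figure D2:**
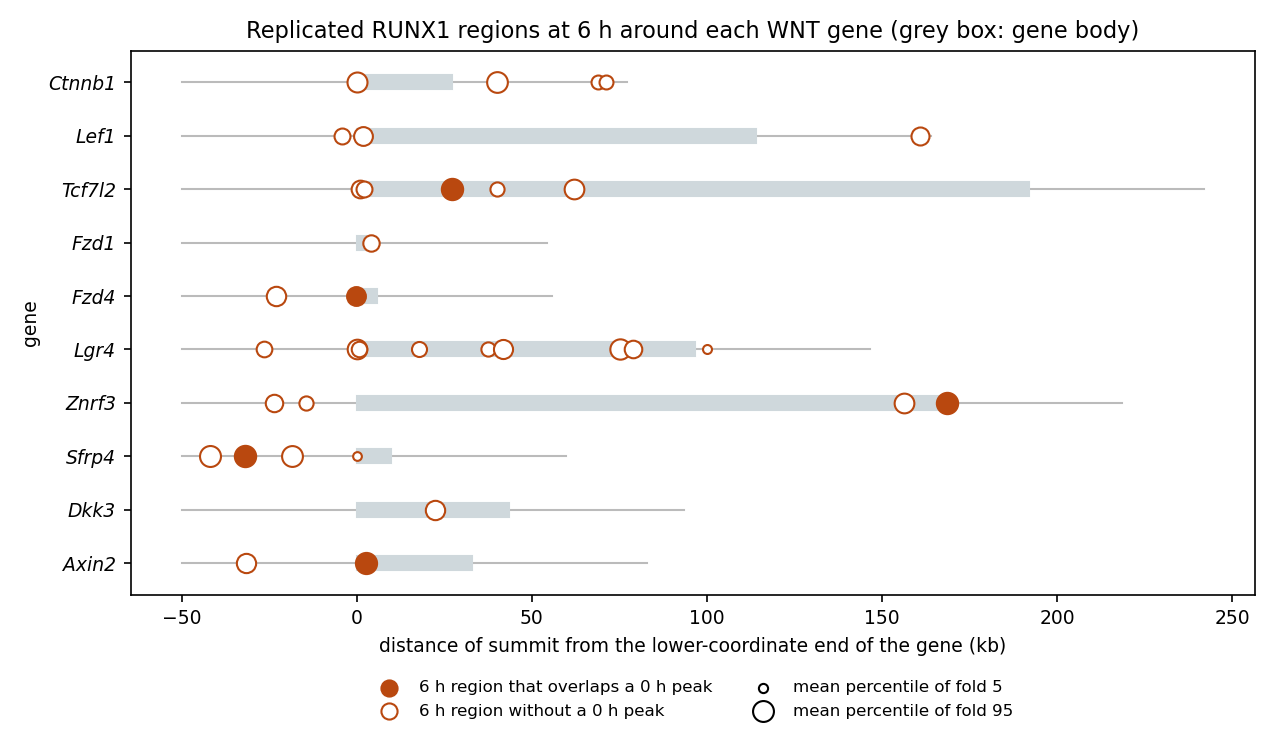
Position of the replicated 6 h regions (circles) around each gene, as distance of the summit from the lower-coordinate end of the gene in kb, with the gene body as a grey box and the 50 kb flanks as a line. Circle size follows the mean percentile of fold within the 6 h lists, and filled circles overlap a 0 h peak. Filled circles are at Tcf7l2, Fzd4, Znrf3, Sfrp4 and Axin2.

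Of the 37 regions at 6 h, 19 had their summit inside the WNT gene and 18 outside it. Another protein-coding gene lay within 50 kb of the summit in 23 of them, and 10 were inside another coding gene and not inside the WNT gene. The nearest coding gene end belonged to the WNT gene in 25 of the 37. Which gene a region acts on was not measured, and the neighbours are named below where they lie nearer. All 7 genes with an annotated start had a replicated 6 h region with its summit within 1 kb of a start of their own, compared with 39.9% of the 17492 coding genes of the promoter table. Counted by region, 12 of the 37 lay within 1 kb of an annotated start of any gene, or 32.4%, and 43.7% of all 6 h regions did.

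The regions were next placed by rank within the 6 h lists. The percentile of fold, averaged over both 6 h libraries, ran from 2.86 to 99.7 over the 37 regions with a median of 66.4, and the median over all 17190 replicated 6 h regions was 59.1. A mean percentile of at least 95, a limit chosen after the values were seen, was reached by 5 of the 37 regions, or 13.5%, and by 5.9% of all regions. These 5 were the regions inside Tcf7l2, at the ends of Znrf3 and Epdr1 (in the window of Sfrp4), at the start of Axin2, and a further one in the window of Sfrp4. The median region width was 600 bp, against 611 bp over all regions.

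**Figure D3:**
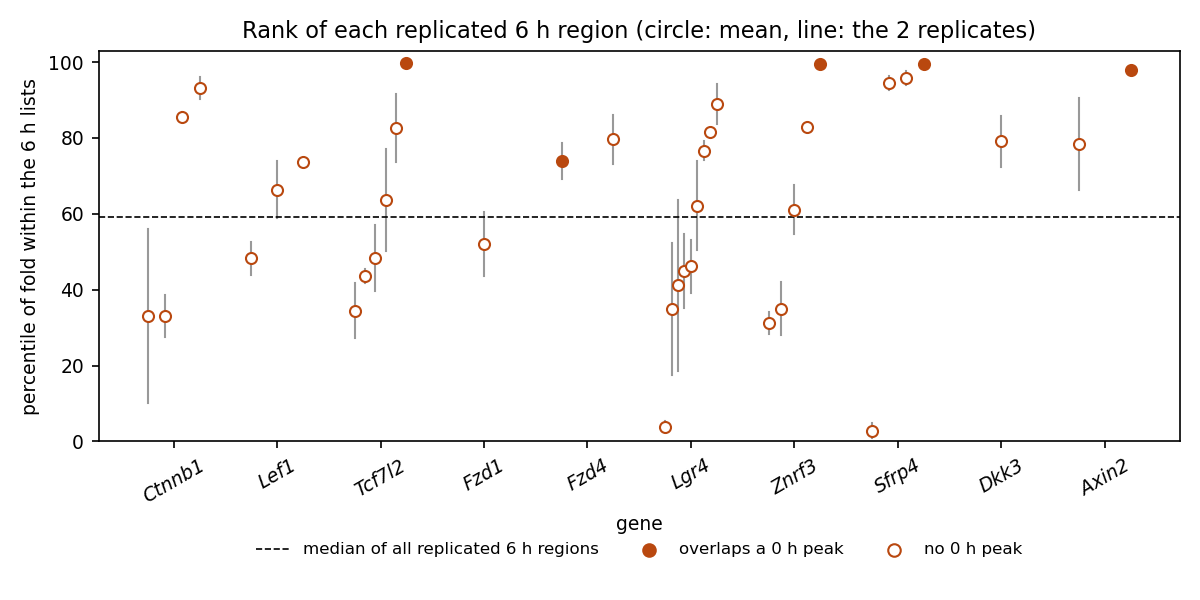
Percentile of fold enrichment within the 6 h lists (vertical axis) of each replicated 6 h region, by gene. Circles are the mean of both replicates, lines join the values of replicates 1 and 2, filled circles overlap a 0 h peak, and the dashed line is the median of all replicated 6 h regions, 59.1. Tcf7l2, Znrf3, Sfrp4 and Axin2 each have 1 filled circle above 97, and the filled circle of Fzd4 lies at 74.0.

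Of the 37 regions at 6 h, 5 overlapped a peak at 0 h, or 13.5%, and 16.5% of all replicated 6 h regions did. The 5 had a median mean percentile of 99.6 at 6 h, and the 32 without a 0 h peak one of 61.6. Over all regions the corresponding medians were 84.2 and 54.4. Of the 5, 1 was called in both 0 h libraries and 4 in 0 h replicate 2 only. Without 0 h replicate 2, 1 of the 37 overlapped a 0 h peak, against 4.96% of all 6 h regions. Without 0 h replicate 1 all 5 did, against 16.2%.

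Among the receptors, Fzd4 had a peak at its start at both time points and Fzd1 only at 6 h. FZD1 and FZD4 are membrane receptors that bind WNT ligands. Fzd4 (chromosome 7, 89404366 to 89410110) had 0 and 1 peaks at 0 h and 2 and 3 at 6 h. The region at 89403532 to 89404952 covered the annotated start and had a fold enrichment over local background, as the authors give it, of 7.17 in 0 h replicate 2, 11.0 in 6 h replicate 1 and 17.2 in 6 h replicate 2, at percentiles 47.0, 69.3 and 78.7 of those lists. It also lay inside Tmem135, a coding gene that overlaps the start of Fzd4, so the 50 kb rule assigns it to both genes. The other Fzd4 region, at 89381017 to 89381366 and 23158 bp before the start, was inside Tmem135 and had an enrichment of 11.8 and 21.0 at 6 h. Fzd1 (chromosome 5, 4753839 to 4758216) had no peak at 0 h and 1 in each 6 h library. This region of 1339 bp, at 4757146 to 4758484, had its summit 350 bases after the start, with an enrichment of 8.02 and 12.4 at percentiles 43.6 and 60.4.

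In the R-spondin branch, Lgr4 had the most 6 h regions of the 10 genes and Znrf3 one of the strongest. LGR4 is the R-spondin receptor and ZNRF3 the ubiquitin ligase it opposes. Lgr4 (chromosome 2, 109917647 to 110014257) had no peak in either 0 h library, 9 in 6 h replicate 1 and 10 in 6 h replicate 2. The 9 replicated regions were more than 98.0% of coding genes had. Of these regions, 7 were inside Lgr4. The strongest, at 109992620 to 109993122 and 75268 bases after the start, had an enrichment of 14.6 and 30.3 at percentiles 83.7 and 94.2. The region over the start, at 109917423 to 109917951, had an enrichment of 13.8 and 18.7, at percentiles 81.2 and 82.2, and an adjoining one at 109918166 to 109918410 had 9.04 and 8.94. The regions outside the gene lay 147 bp from an end of Lin7c and 308 bp from an end of Ccdc34, and both had mean percentiles below the median of all regions, 46.1 and 3.92.

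Znrf3 (chromosome 11, 5276329 to 5444847) had 0 and 1 peaks at 0 h and 5 and 8 at 6 h. Its region at 5444671 to 5445487 crossed the higher-coordinate end of the gene, with the summit 34 bp from that end. The fold was 8.74 in 0 h replicate 2, 39.6 in 6 h replicate 1 and 61.3 in 6 h replicate 2, at percentiles 72.4, 99.5 and 99.6. In 6 h replicate 1 it ranked 99 of 18761 by fold and in replicate 2 it ranked 105 of 28671. The summits of 0 h replicate 2 and of the 6 h region were 12 bp apart. A region inside the gene at 5432353 to 5432700 was called only at 6 h, with an enrichment of 14.1 and 19.5. Both regions on the far side of the gene lay nearer to Kremen1, which encodes a receptor for Dickkopf proteins, and one of them was 212 bp from an end of that gene.

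Around the antagonist gene Sfrp4, 3 of the 4 regions ranked at percentile 92.6 or above in both 6 h lists, and none of these 3 was inside the gene. Sfrp4 (chromosome 13, 19623175 to 19632825) had 1 peak in each 0 h library and 4 and 6 at 6 h. The site called in all 4 libraries lay at 19590925 to 19591647 at 6 h and at 19591103 to 19591434 at 0 h. It had an enrichment of 9.26 and 11.4 at 0 h, at percentiles 71.4 and 89.7, and of 39.1 and 66.1 at 6 h, where it stood at percentiles 99.4 and 99.8. The 6 h summit was 31934 bp outside Sfrp4 and 467 bp from an end of the neighbour Epdr1, so its assignment to Sfrp4 rests on the 50 kb window. Within 10 kb, 0 of the 10 genes had a replicated region at 0 h, and 4.09% of all coding genes did.

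The other strong regions near Sfrp4 were called only at 6 h. One lay at 19580449 to 19581647, 10396 bp from Epdr1, with an enrichment of 21.3 and 40.9, and the other at 19604486 to 19604945, inside Epdr1, with 19.7 and 35.4. The region at the end of Sfrp4 itself, at 19622879 to 19623478 with its summit 45 bp from that end, had an enrichment of 3.76 and 5.55 and was among the lowest in the lists, at percentiles 0.986 and 4.74. Dkk3, a member of the Dickkopf family of secreted proteins (chromosome 7, 112116019 to 112159482), had no peak at 0 h and 1 and 3 at 6 h. Its single replicated region, at 112138240 to 112138868, was inside the gene and 20969 bp from the nearer end, with an enrichment of 11.6 and 20.8 at percentiles 72.4 and 85.9.

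At Axin2, which encodes a scaffold of the destruction complex and is a widely used target gene of β-catenin signalling, the widest of the 37 regions lay over the annotated start. Axin2 (chromosome 11, 108917828 to 108950783) had 0 and 1 peaks at 0 h and 2 and 3 at 6 h. The region at 108920096 to 108922219 spanned 2124 bp. It covered the start of the promoter table, with its summit 2579 bp inside the lower-coordinate end of the gene. Its fold was 6.73 in 0 h replicate 2, and 28.2 and 46.3 in 6 h replicates 1 and 2. These stood at percentiles 37.6, 97.6 and 98.5 of their lists. The 0 h peak covered 108920328 to 108920768, and its summit was 87 bp from that of the 6 h region. A region at −34093 from the start (108886057 to 108886641) was absent from both 0 h lists and had an enrichment of 10.5 and 25.0, and the nearest coding gene end was that of Cep112.

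Of the nuclear effectors, Tcf7l2 had a peak in 0 h replicate 2 as well as in both 6 h libraries, and Ctnnb1 and Lef1 had peaks only at 6 h. TCF7L2 and LEF1 are the DNA-binding partners of β-catenin. Tcf7l2 (chromosome 19, 55741797 to 55933659) had 0 and 1 peaks at 0 h and 6 and 10 at 6 h, and all 6 replicated regions were inside the gene. The one at 55768692 to 55769478, 27222 bases after the nearest annotated start, had the highest mean percentile of the 37, 99.7. Its fold was 7.97 in 0 h replicate 2, at percentile 62.9, and 40.5 and 67.7 at 6 h, at percentiles 99.5 and 99.8. By fold it ranked 93 in 6 h replicate 1 and 53 in replicate 2. The next strongest, at 55803781 to 55804225, was found only at 6 h and had an enrichment of 11.9 and 26.4. Near the first start a region at 55742420 to 55743191, with its summit 879 bases after it, had an enrichment of 12.6 and 10.7.

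Ctnnb1 (chromosome 9, 120933400 to 120960507) had no peak at 0 h and 4 and 8 at 6 h. The region at its start, 120932987 to 120933586, had an enrichment of 15.9 and 19.8 at percentiles 86.7 and 84.4. The strongest region of its window lay inside the neighbour Ulk4, at 120973064 to 120973628 and 12814 bp from the end of Ctnnb1, with an enrichment of 18.1 and 34.8 at percentiles 90.4 and 96.1. The other 2 regions were also inside Ulk4, and no replicated region had its summit inside Ctnnb1. Lef1 (chromosome 3, 131110297 to 131224357) had no peak at 0 h and 5 and 4 at 6 h. Its strongest region, at 131111173 to 131112686, spanned 1514 bp inside the gene, with an enrichment of 11.7 and 15.6 and its summit at −621 from one of the annotated starts. A second lay 4113 bp outside the gene, with 8.07 and 11.1, and the third was inside the neighbour Hadh, with 9.56 and 15.5.

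The number of reads over the summit was recovered from fold and p-value for the 5 sites with a 0 h peak, and divided by the genome-wide background of the library. Such ratios are not corrected for the share of reads in peaks, and only called peaks have one. At the site in the window of Sfrp4 there were 35 and 42 reads at 0 h and 146 and 206 at 6 h. Relative to the background these were 12.6 and 15.8 before hCG and 52.9 and 96.7 after it. The means were 14.2 ± 2.27 and 74.8 ± 31.0 (SD, n = 2 each), and the groups did not overlap (two-sided exact permutation test, p = 0.333, the smallest possible). The same held for 90.8% of the 795 replicated 6 h regions called in all 4 libraries. The ratio of the 6 h mean to the 0 h mean was 5.25 at this site, and its median over those 795 regions was 3.73. At the other 4 sites 0 h replicate 2 had between 26 and 44 reads, and 0 h replicate 1 had no peak. At 6 h the Tcf7l2 site had 202 and 235 reads, the Znrf3 site 148 and 191, the Axin2 site 105 and 144 and the Fzd4 site 72 and 78. The value over background was higher in both 6 h libraries than in 0 h replicate 2 at each of these sites, as at 97.8% of all 6 h regions with a peak of that 0 h library only. The Fzd4 site had the lowest values of the 5, 9.81 in 0 h replicate 2 and 26.1 and 36.6 at 6 h.

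**Figure D4:**
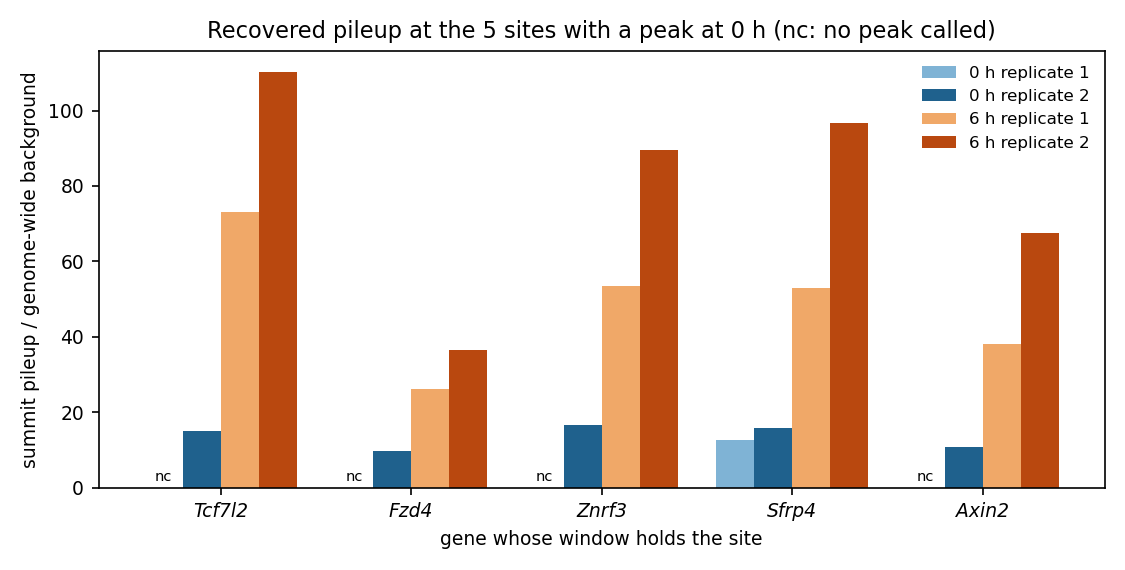
Reads over the summit divided by the genome-wide background of the library (vertical axis) at the 5 sites with a 0 h peak, with 1 bar per library and nc where no peak was called. Bars at 6 h are taller than those at 0 h at every site, and the Sfrp4 site has bars of 12.6 and 15.8 at 0 h and of 52.9 and 96.7 at 6 h.

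The other genes of the pathway gave a wider view, with 75 genes listed by role. A replicated region at 0 h was present in the window of 7 of the 75, or 9.33%, against 8.75% of all protein-coding genes. At 6 h 66 of the 75 had one, or 88.0%, against 68.8%. More peaks in both 6 h libraries than in either 0 h library were counted for 60 of the 75, while this held for 64.6% of coding genes. Within 1 kb of an annotated start, 20 of the 49 listed genes of the promoter table had a replicated 6 h region, or 40.8%, close to the 39.9% of all coding genes. All 19 WNT ligand genes had a region at 6 h, and so did the 7 R-spondin branch genes, the 6 nuclear effectors and the 2 genes of ligand secretion. Among receptors and co-receptors 10 of 13 had one, among antagonists 10 of 14 and among cytoplasmic transducers 12 of 14. The 9 genes without one were the receptors Fzd6, Fzd10 and Ror2, the antagonists Frzb, Wif1, Dkk2 and Sostdc1, and the intracellular regulators Nkd2 and Amer1. These counts are by window, and for several ligands, such as Wnt1 and Wnt3, no 6 h region had its summit inside the gene. Windows of neighbouring genes can share a region, and a longer gene has a larger window.

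The 7 listed genes with a replicated region at 0 h were the ligands Wnt3 and Wnt3a, the R-spondin receptor Lgr6, the antagonist Sfrp5, the kinase gene Gsk3b, the intracellular antagonist Nkd1 and the effector Tcf7. For 4 of them, Wnt3, Wnt3a, Sfrp5 and Tcf7, the 0 h region was inside a neighbouring coding gene. The region in the window of Wnt3 was inside Nsf and 26061 bp from Wnt3, with an enrichment of 18.6 and 23.8 at 0 h. At 6 h it had 51.7 and 77.8, the highest mean percentile among the listed genes, 99.9. The 0 h region of Nkd1 was inside that gene, with an enrichment of 12.8 and 15.5. That of Gsk3b was 295 bases after its start, with 10.4 and 7.66, and at 6 h the site had 11.4 and 17.2. The next highest at 6 h were in the windows of Notum, with an enrichment of 34.6 and 43.2, of Wnt1 and Wnt10b, which share a region with 25.3 and 53.3, and of Wnt6 and Wnt10a, which share one with 24.0 and 40.5. The Notum region was 172 bp from an end of Aspscr1, and the region shared by Wnt6 and Wnt10a was nearest to Wnt10a.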

How the data were processed

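RUNX1 ChIP-seq was analysed from 4 peak lists, 2 at 0 h and 2 at 6 h, grouped by sample title. Reads were aligned with Bowtie2 2.2.5 to mm10 and peaks called with MACS2, per the submitters' processing notes, and per the series design each library had the pooled input of its time point. Settings are not given in the sources used here. The deposited lists give a fold ratio, a −log10 p and a −log10 q per peak, and the deposited score is 10 times the −log10 p, which was not used. Fold values are the authors' and were ranked only within a list, because each depends on its own library and input. The lists hold only peaks with a −log10 p above about 9.

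Coordinates are on mm10 (GRCm38), counted from 1. Genes and starts came from RefSeq GRCm38.p6 tables, and all 85 listed symbols matched. Exons and introns were not separated, and peak sequences outside promoter windows were not used here. Peaks sharing at least 1 bp were merged, and a replicated region holds peaks of both libraries. The whole-number pileup and background were solved from fold and −log10 p within 0.005, for 100% of peaks. Differences were tested over libraries by exact permutation, and 2 against 2 cannot go below 0.333. Shares carry exact Clopper-Pearson 95% intervals. The analysis used Python 3.11.15, pandas 2.3.3 and scipy 1.17.1, and the assignment, merging and pileup steps were tested on simulated data.

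The genes and lists were chosen with earlier results of these data known. All 10 genes were described, each with its strongest 6 h region, together with every region that overlapped a 0 h peak. Of the other pathway genes, those with a replicated region at 0 h and those without one at 6 h were named. The 5 with the highest mean percentile at 6 h were also named, with Wnt10a added because it ties with Wnt6. Alternatives were a 10 kb window, the gene body only, a −log10 q of at least 20, 948 peaks per library, summits within 100 bp, each library left out, and the replicate number as a block.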

Additional observations from a re-analysis of the deposited data

How the results depend on the processing

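The log2 difference in peak number near the 10 genes stayed positive under all alternatives that gave a value, and it was 1 with 948 peaks per library. Leaving out one library gave 3.22 to 5.55. The 10 kb window and the gene body gave no value, because 0 h replicate 1 then had no peak. The difference in share ran from 0.0421 to 0.0961 percentage points when a library was left out, was 0.158 with 948 peaks per library and was −0.0538 at a −log10 q of at least 20. No label pairs libraries by number, and with the replicate block the differences were 4.39 and 0.0691 (exact permutation within numbers, p = 0.5, n = 2 pairs). Across 16706 genes the deviations of same-numbered libraries correlated at −0.149. With the numbers crossed, a choice made after seeing the data, the same permutation test again gave p = 0.5. This is the smallest p that 2 pairs can give, so neither pairing could yield a call.

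At 0 h the number of the 10 genes with a replicated region was 1, and it was 0 with the 10 kb window and with the gene body only, as was the number of regions, where 4.09% and 2.06% of all coding genes had a region. Leaving out a library gave 1 to 5 for both, the 5 without 0 h replicate 1, where 28.2% of coding genes had one. At 6 h the gene body held 19 regions, 6 of the 10 genes had more peaks in both 6 h libraries (29.8% of all coding genes), and 2 of the 19 regions overlapped a 0 h peak (16.5% of all 6 h regions). Leaving out a library gave 37 to 56 regions at 6 h, the 56 without 6 h replicate 1, and 1 to 5 that overlapped a 0 h peak, the 1 without 0 h replicate 2 (4.96% of all 6 h regions). With 948 peaks per library 3 of the genes had a region at 6 h (Sfrp4, Tcf7l2 and Znrf3; 6.85% of all coding genes had one), with 3 regions, 3 that overlapped a 0 h peak (56.5% of all regions then) and 0 genes with more peaks in both 6 h libraries. At a −log10 q of at least 20, 3 of 25 regions overlapped a 0 h peak, against 8.501% of all regions. Of the 75 other genes, those with a region at 0 h numbered 3 with either narrower window, 4 at the stricter q (3.86% of all coding genes) or with 948 peaks (6.41%), and 7 to 27 without a library, the 27 coming without 0 h replicate 1. At 6 h they numbered 42 in the gene body (35.4% of all coding genes) and 4 with 948 peaks (6.85%). No list holds a summit under 17 reads.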
